A study of Mus musculus with 4 samples.

Results

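The mitochondrial chromosome genes of the mouse were taken as every gene of the deposited expression table whose name starts with mt-. They numbered 37 of 46072 genes, of which 13 encode proteins, 2 encode ribosomal RNAs (rRNA) and 22 encode transfer RNAs (tRNA). The series profiled poly(A) RNA of 4 sequencing libraries from wild-type (WT), untreated brain vasculature. The cells are labelled as endothelial and were dissected by laser capture microdissection (LCM), which cuts selected cells out of a section with a laser. The series title names brain fixed by perfusion and immunolabelling as the guide for the laser. The libraries form 1 group, called replicates 1 to 4 here, so genes were compared with each other within libraries. Whether each library stands for an animal of its own is not stated, so the p-values refer to the spread of these libraries alone, part or all of which may be technical. Values are FPKM, fragment numbers divided by the length of the transcript and by the number mapped in the library, so levels of different genes are compared per unit of length throughout. The depth of the libraries is unknown, because the table holds no counts.

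FPKM summed to between 448678 and 482882 per library, and log2 values of any pair of libraries correlated across genes with Pearson's r of 0.987 to 0.991, where genes are not independent replicates. Of 8 endothelial markers, 7 lay above 1 FPKM, as did 47.7% of all 25206 genes tested (limma, Benjamini-Hochberg adjusted over these), and the adherens junction gene Cdh5 measured 0.878 ± 0.367 FPKM (SD, n = 4) with an adjusted p of 0.458. Their sum ranged from 136.9 to 155.4 FPKM per library. The sums were 12240 to 17924 for 6 choroid plexus markers and 4829 to 6094 for 6 oligodendrocyte markers. They were 2082 to 2654 for 8 neuronal markers and 780 to 971 for 6 astrocyte markers. None of these markers was at 0 in all libraries. Most of the choroid plexus sum came from 1 gene, Ttr, at a mean of 14493 FPKM. The medians over genes were 149 FPKM for choroid plexus, 535 for oligodendrocyte, 117 for neuronal, 103 for astrocyte and 5.15 for endothelial markers. In bulk samples such as these, fewer cells of a type and less RNA per cell cannot be told apart. The mitochondrial genes were lower in replicate 2 than in the other libraries, as described at the end, and the class shares are therefore also given without it.

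The mitochondrial chromosome is a small circle whose genes are packed with almost no spacing. Each strand is copied into a long transcript, and most mRNAs and rRNAs are released when the tRNAs lying between them are cut out at both ends. The heavy-strand transcript, on the plus strand of the reference, carries the rRNAs, most tRNAs and all mRNAs except mt-Nd6. The light-strand transcript, on the minus strand, carries mt-Nd6 and the other tRNAs. Released mRNAs receive a poly(A) tail, which in some completes a stop codon that the gene itself leaves unfinished, and rRNAs carry short tails, while mature tRNAs end in CCA and carry no such tail. The encoded proteins are all membrane subunits of complexes I, III, IV and V of oxidative phosphorylation, where they assemble with many subunits encoded in the nucleus.

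The unfinished stop codons can be read in the reference annotation. The following lines give the last bases of 3 genes that end in a lone T, printed in capitals, and of mt-Co1, whose full stop codon is in capitals. All are 5′ to 3′ on the plus strand, from the GENCODE M21 transcripts of build GRCm38.
mt-Co3 (chrMT:9366-9390): gtctccatttattgatgaggatctT
mt-Nd4 (chrMT:11520-11544): aaactaattacaggcctgacaataT
mt-Cytb (chrMT:15264-15288): gacaaaatactaaaattatatccaT
mt-Co1 (chrMT:6849-6872): ccaacctatgtaaaagtaaaaTAA

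Every mitochondrial gene was detected in every library, with 0 of the values at 0, and all 37 were among the 25206 genes tested. All 13 protein genes, both rRNA genes and all 22 tRNA genes lay above 1 FPKM, where 47.7% of all genes tested lay above and 40.1% below that level (limma on log2(FPKM + 1), adjusted p under the threshold of 0.05). The call was weakest for mt-Tf, the phenylalanine tRNA, which measured 2.45, 1.20, 3.24 and 2.29 FPKM in replicates 1 to 4. Its log2 difference from 1 FPKM was 0.68 with a standard error of 0.19 and an adjusted p of 0.0171. That call was lost without replicate 1 (adjusted p = 0.0587), without replicate 3 (adjusted p = 0.0551) and without replicate 4 (adjusted p = 0.0572, all limma).

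Protein genes held most of the mitochondrial signal. Their share of all FPKM was 8.26%, 6.25%, 9.42% and 8.57% in replicates 1 to 4, or 8.13% ± 1.34. The rRNA genes held 1.56%, 0.999%, 1.85% and 1.45%, or 1.47% ± 0.354. The tRNA genes held 0.978%, 0.777%, 1.23% and 1.07%, or 1.02% ± 0.191, most of it from mt-Ts1, a serine tRNA gene, without which the tRNA share was 0.351% ± 0.0647. In each class replicate 2 was lowest and replicate 3 highest. Without replicate 2 the shares were 8.75%, 1.62% and 1.10% for protein, rRNA and tRNA genes.

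**Figure D1:**
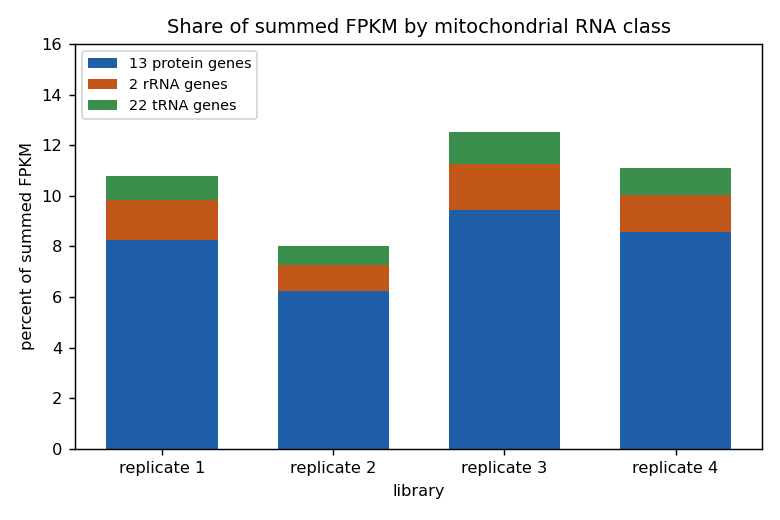
Share of summed FPKM held by the 13 protein, 2 rRNA and 22 tRNA genes of the mitochondrial chromosome, as percent on the vertical axis, with 1 stacked bar for each library. The whole bar ran from 8.03% in replicate 2 to 12.5% in replicate 3, and protein genes made up most of every bar.

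Within the mitochondrial signal the make-up was steadier than its size. Protein genes held 75.3% to 77.9% of mitochondrial FPKM in the 4 libraries, rRNA genes 12.5% to 14.8% and tRNA genes 9.06% to 9.86%. The 28 genes of the heavy-strand transcript held 86.9% ± 0.207 and the 9 genes of the light-strand transcript 13.07% ± 0.207. FPKM gives a gene of tRNA length the same weight as a long one, so each value was also multiplied by transcript length. The length was that of the gene's longest annotated transcript, so the result is only a rough stand-in for a share of fragments. Where a nuclear gene mainly makes a shorter transcript, its part is overstated and the mitochondrial shares are understated. On that scale protein genes held 3.45% ± 0.642, rRNA genes 0.951% ± 0.239 and tRNA genes 0.0315% ± 0.00650 of the total.

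Among protein genes, the 3 highest encode subunits of complexes V and IV. mt-Atp6, the subunit that forms the proton path of ATP synthase, measured 5948, 4980, 7212 and 6963 FPKM (6276 ± 1022) and was the third highest gene of the whole table. mt-Co3, a core subunit of cytochrome c oxidase (complex IV), measured 5585, 4330, 6881 and 6250 FPKM (5761 ± 1091). mt-Co1, the catalytic subunit that holds the oxygen-reducing site, measured 4707, 3766, 6172 and 5659 FPKM (5076 ± 1063). Their ranges over the libraries overlapped, and each was lowest in replicate 2. mt-Cytb, the catalytic core subunit of complex III, followed with 4480, 3635, 5304 and 5059 FPKM (4619 ± 741), a range that lay within that of mt-Co1 except at its lower end. mt-Co2, which takes electrons from cytochrome c, measured 3051, 2165, 3554 and 3195 FPKM (2991 ± 590), below the other complex IV genes in each library.

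The 7 complex I genes spread over a wider range. These subunits form the membrane arm through which complex I moves protons. mt-Nd1 was highest at 3640, 2967, 4322 and 4129 FPKM (3765 ± 604), and its lowest library exceeded the highest library of every other complex I gene. mt-Nd6 (2146 ± 465 FPKM), mt-Nd4 (2045 ± 426 FPKM) and mt-Nd2 (1571 ± 332 FPKM) overlapped in range. mt-Nd5 measured 1190, 846, 1338 and 1202 FPKM (1144 ± 210), and mt-Nd3 551, 390, 626 and 553 FPKM (530 ± 99.8), with no overlap between this pair. mt-Nd4l was the lowest protein gene, with 213, 158, 233 and 206 FPKM (203 ± 31.9), so that the highest and lowest protein genes differed 31.0-fold. The median of the 13 genes was 2153 ± 451 FPKM.

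**Figure D2:**
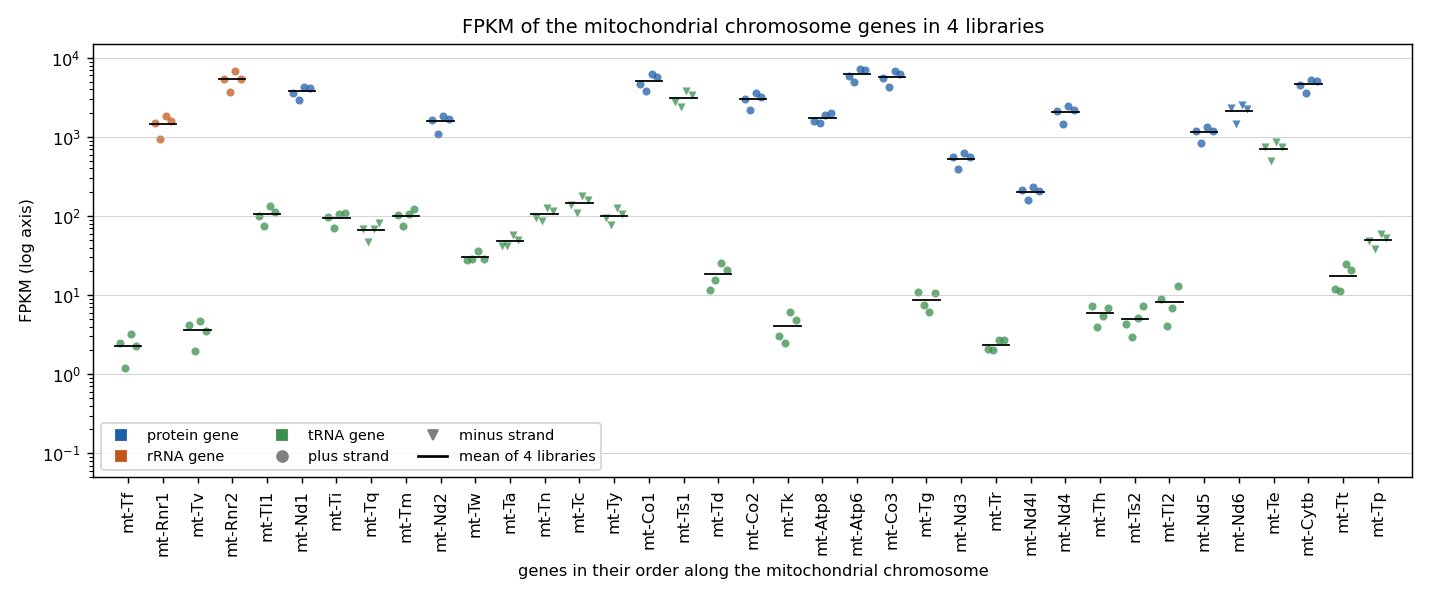
FPKM on a log axis of the 37 genes in their order along the mitochondrial chromosome, with 1 point for each of the 4 libraries and a bar at their mean, coloured by RNA class and shaped by strand. Protein and rRNA genes lay at 158 FPKM or more in each library. Most tRNA genes lay far below the nearest protein or rRNA genes, apart from mt-Ts1 at a mean of 3103 FPKM and mt-Te at 712 FPKM.

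Some of these genes overlap, and the shared bases matter for reading their values. mt-Atp8 and mt-Atp6 are translated from 1 mRNA in different frames, and so are mt-Nd4l and mt-Nd4. The bases that both genes of a pair use are in capitals.
mt-Atp8/mt-Atp6 (chrMT:7912-7984, plus strand): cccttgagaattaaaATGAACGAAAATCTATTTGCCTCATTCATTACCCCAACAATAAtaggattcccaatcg
mt-Nd4l/mt-Nd4 (chrMT:10152-10188, plus strand): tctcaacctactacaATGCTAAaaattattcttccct

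The genes share 43 bases in the mt-Atp8/mt-Atp6 pair and 7 bases in the mt-Nd4l/mt-Nd4 pair. mt-Atp8, a small ATP synthase subunit bound to the membrane part, measured 1610, 1496, 1909 and 2023 FPKM. The mt-Atp6 to mt-Atp8 ratio of FPKM was 3.56 ± 0.210 and above 1 in 4 of 4 libraries. The mt-Nd4 to mt-Nd4l ratio was 10.03 ± 0.660, also in 4 of 4 libraries. Genes on a shared mRNA thus had unequal FPKM. mt-Atp8 at 204 bases and mt-Nd4l at 297 bases are the shortest protein genes. After multiplication by length the differences grew, from 1.83 to 3.57 on the log2 scale for mt-Atp6 minus mt-Atp8 and from 3.32 to 5.51 for mt-Nd4 minus mt-Nd4l. With the FPKM of nuclear copies, described further on, added to these genes, they were 2.86 and 2.66. Each pair gave p = 0.13 in an exact 2-sided sign-flip test over 4 libraries, which is the smallest value the test allows, so it cannot reach 0.05. It stayed 0.13 after Benjamini-Hochberg adjustment over the 8 ratios computed, as for the other ratios below.

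The rRNAs are the structural and catalytic RNAs of the mitochondrial ribosome. mt-Rnr1, the small subunit rRNA gene (chrMT:70-1024), measured 1518, 935, 1857 and 1581 FPKM (1473 ± 388). mt-Rnr2, the large subunit rRNA gene (chrMT:1094-2675), measured 5461, 3659, 6876 and 5440 FPKM (5359 ± 1318). Every library of mt-Rnr2 lay above every library of mt-Rnr1. Their ratio was 3.66 ± 0.198 and ranged only from 3.44 to 3.91, although the FPKM of each gene nearly doubled from its lowest to its highest library. On the log2 scale the difference was 1.87 ± 0.08, or 2.60 after multiplication by length, with p = 0.13 in the exact test. Between the rRNA genes lies mt-Tv, the valine tRNA, which measured 4.19, 1.95, 4.73 and 3.51 FPKM, or 0.244% of the mean FPKM of mt-Rnr1.

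The tRNA genes, of 59 to 75 bases, were the lowest class and the most uneven. From mt-Tf at 2.30 ± 0.841 FPKM to mt-Ts1 at 3103 ± 661 FPKM the means spanned 1352-fold. Means were under 10 FPKM for 8 tRNA genes, from 10 up to 100 FPKM for 7 and at or above 100 FPKM for 7. Strand divided them. The 8 tRNA genes of the light-strand transcript had a median of 103.6 ± 20.1 FPKM and none had a mean under 47.8 FPKM, the value of the alanine tRNA mt-Ta. The 14 tRNA genes of the heavy-strand transcript had a median of 8.49 ± 2.87 FPKM, and 11 of them lay below mt-Ta. The light minus heavy difference of medians, on the log2(FPKM + 1) scale, was 3.14, 3.65, 4.09 and 3.14 in replicates 1 to 4, or 3.51 ± 0.46. It was 3.17 without mt-Ts1 and mt-Te, and 3.67 without the tRNA genes that overlap another gene. No source used here gives the strand setting of the libraries or of the counting, so reads from opposite strands at a locus cannot be told apart.

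On the heavy-strand transcript, 3 tRNA genes stood at the level of the light-strand ones. They were mt-Tl1 (leucine) at 104.7 ± 23.9 FPKM, mt-Tm (methionine) at 101.3 ± 19.3 FPKM and mt-Ti (isoleucine) at 95.6 ± 17.6 FPKM. All 3 lie on either side of mt-Nd1, and mt-Ti shares 2 bases with its end. The light-strand genes mt-Ta, mt-Tn, mt-Tc and mt-Ty, for alanine, asparagine, cysteine and tyrosine, lie together between mt-Nd2 and mt-Co1. They measured between 47.8 FPKM (mt-Ta) and 145.6 FPKM (mt-Tc). The heavy-strand genes between mt-Nd4 and mt-Nd5, for histidine, serine and leucine, were all under 10 FPKM: mt-Th at 5.92 ± 1.55, mt-Ts2 at 4.96 ± 1.83 and mt-Tl2 at 8.25 ± 3.84. mt-Tr, the arginine tRNA, measured 2.37 ± 0.396 FPKM and lay between the 2 lowest protein genes, mt-Nd3 and mt-Nd4l. The glycine tRNA mt-Tg (8.72 ± 2.35 FPKM) stood at 1.65% of the lower of its neighbours and the aspartate tRNA mt-Td (18.4 ± 5.98 FPKM) at 0.615%. The lysine tRNA mt-Tk (4.11 ± 1.67 FPKM) stood at 0.234%.

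The highest tRNA genes were mt-Ts1 and mt-Te, which adjoin mt-Co1 and mt-Nd6. Their sequences are printed 5′ to 3′ on the minus strand, with the 3 bases that mt-Ts1 shares with the opposite-strand gene mt-Co1 in capitals. mt-Tf, the lowest tRNA, is set beside them on the plus strand.
mt-Ts1 (chrMT:6870-6938, minus strand): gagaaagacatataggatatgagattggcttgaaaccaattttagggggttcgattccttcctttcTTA
mt-Te (chrMT:14071-14139, minus strand): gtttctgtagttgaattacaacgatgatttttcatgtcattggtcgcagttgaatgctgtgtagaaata
mt-Tf (chrMT:1-68, plus strand): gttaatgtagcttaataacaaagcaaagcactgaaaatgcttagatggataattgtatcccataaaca

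mt-Ts1 measured 2767, 2376, 3864 and 3405 FPKM. Its mean was 103.7% of that of mt-Co2, the lower of the nearest protein genes on its sides. The tRNA gene mt-Td, at 18.4 FPKM, lies between mt-Ts1 and mt-Co2. With its nuclear copy Gm28661 added, mt-Co2 measured 6120, 4525, 7369 and 6678 FPKM. All 4 libraries of mt-Ts1 lay above all libraries of every other tRNA gene. The mRNA of mt-Co1 is known to run on past its stop codon through the sequence opposite mt-Ts1. The mt-Co1 to mt-Ts1 ratio of FPKM was 1.64 ± 0.0548, between 1.59 and 1.70 in the 4 libraries (exact p = 0.13). mt-Te, the glutamate tRNA, measured 743, 498, 855 and 754 FPKM. It lies directly upstream of mt-Nd6 on the light-strand transcript and reached 33.2% of it. The mt-Nd6 to mt-Te ratio was 3.01 ± 0.0803, between 2.95 and 3.12 (exact p = 0.13). Multiplied by length, the log2 differences became 5.19 for mt-Co1 minus mt-Ts1 (0.71 in FPKM) and 4.47 for mt-Nd6 minus mt-Te (1.59 in FPKM). With the FPKM of nuclear copies, described further on, added without rescaling for length, mt-Co1 minus mt-Ts1 was 1.68. For mt-Nd6 minus mt-Te it stayed at 1.59. Both FPKM ratios varied far less than the genes themselves, whose coefficients of variation (CV, the SD as percent of the mean) were 20.9% to 21.7%. This was not particular to them: mt-Rnr2 to mt-Rnr1 (3.66 ± 0.198) and mt-Nd4 to mt-Nd4l (10.03 ± 0.660) also varied less than their genes. The other light-strand tRNA at that end, the proline tRNA mt-Tp, measured 49.7 ± 9.19 FPKM beside mt-Tt, the threonine tRNA of the heavy-strand transcript, at 17.2 ± 6.53 FPKM.

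mt-Nd6 is the only protein gene of the light-strand transcript, and in human cells its mRNA is known to carry little or no poly(A) tail. Its gene ends inside the end of mt-Nd5, which lies on the opposite strand. The last bases of each gene are printed 5′ to 3′ on its own strand, with the 14 shared positions in capitals.
mt-Nd6 (chrMT:13552-13575, minus strand): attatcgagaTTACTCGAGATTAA
mt-Nd5 (chrMT:13542-13565, plus strand): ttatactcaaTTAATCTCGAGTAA

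mt-Nd6 measured 2315, 1467, 2521 and 2279 FPKM, in the middle of the protein genes. It stood below the median of the 12 heavy-strand protein genes in 4 of 4 libraries, with a log2 difference of -0.22 ± 0.07 SD (ratio 0.847 ± 0.0384, exact p = 0.13). Against the mean of log2 values instead of the median the difference was 0.033 (exact p = 0.625), so its side of the heavy-strand genes depends on that choice. It was -0.56 with nuclear copies added to the other genes and -1.13 after multiplication by length. mt-Nd6 was 1.87 ± 0.0912 times as high as mt-Nd5 in FPKM, in 4 of 4 libraries. Multiplied by length, the direction turned, at a log2 difference of -0.91, since mt-Nd5 is the longest of these genes at 1824 bases and mt-Nd6 has 519. mt-Cytb, on the other side of mt-Te, was 2.18 ± 0.228 times as high as mt-Nd6, a log2 difference of 1.12, or 2.26 after multiplication by length. The mRNA of mt-Nd5 is known to extend opposite mt-Nd6, and without the strand setting the reads of each cannot be told apart there.

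The 73 nuclear-encoded subunits of complexes I, III, IV and V gave a reference level within each library, with a median of 304.7 ± 21.5 FPKM. Of the mitochondrial protein genes, 12 lay above it and 1 below, both rRNA genes lay above it, and of the tRNA genes 2 lay above and 20 below (limma, adjusted over all genes). Of all genes tested, 0.647% lay above this level and 99.2% below it. The gene below was mt-Nd4l, at log2 differences of -0.39, -0.97, -0.35 and -0.68, mean -0.60 ± 0.29. This call turned when the FPKM of its nuclear copy Gm10222, identical over the matched bases, was added. The sums of 435, 317, 475 and 419 FPKM lay above the reference level in 4 of 4 libraries. Their log2 differences were 0.63, 0.03, 0.68 and 0.34, mean 0.42 ± 0.30, so replicate 2 lay close to the reference level. The adjusted p of 2.08e-05 (limma) rests on variance pooled over genes and not on this spread alone. The protein genes above it ranged from mt-Nd3, at 0.78 ± 0.33, to mt-Atp6, at 4.35 ± 0.25. The tRNA genes above it were mt-Ts1, at 3.32 ± 0.31, and mt-Te, at 1.20 ± 0.37. Each of the 37 genes lay on the same side in 4 of 4 libraries. The SD of the difference over libraries had a median of 0.32 in protein genes. limma pools the variance of genes along its trend and gave smaller errors, such as a standard error of 0.09 for mt-Nd6. That is an error of a mean of 4 libraries, while the gene's SD of 0.39 is between single libraries. They are not on the same scale. Even as an error of a mean of 4 libraries, the gene's own spread stays larger than the limma error.

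Complex by complex, mitochondrial subunits exceeded their nuclear partners. In complex I the median of the 7 mitochondrial genes was 1571 ± 332 FPKM and that of 36 nuclear genes 204 ± 17.3 FPKM, with 5 of the 7 above every nuclear gene. The nuclear genes ran from the iron-sulfur subunit Ndufs1 at 67.8 FPKM to the accessory subunit Ndufb9 at 694 FPKM, so that mt-Nd3 and mt-Nd4l lay within their range. In complex III mt-Cytb stood at 4619 ± 741 FPKM against a median of 249 ± 43.3 FPKM in 9 nuclear genes, the highest of them Uqcr10 at 569 FPKM. In complex IV the medians were 5076 ± 1063 FPKM for 3 mitochondrial and 840 ± 49.3 FPKM for 11 nuclear genes, and all 3 exceeded Ndufa4, the highest nuclear gene at 1316 FPKM. In complex V they were 4018 ± 629 FPKM for mt-Atp6 and mt-Atp8 and 410 ± 32.7 FPKM for 17 nuclear genes, of which the highest was Usmg5 at 1356 FPKM.

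The log2 differences of these medians were 2.92 ± 0.33 in complex I, 4.21 ± 0.47 in complex III, 2.57 ± 0.28 in complex IV and 3.01 ± 0.23 in complex V. The lowest library of each was replicate 2, at 2.45, 3.54, 2.21 and 2.67. Complex V stood at 0.87 after multiplication by the length of the longest annotated transcript. That length was 204 bases for mt-Atp8 and reached 6310 bases among the nuclear genes (Atp5l), whose measured transcripts may be shorter. Complex IV and complex V stood at 3.54 and 3.52 when the FPKM of nuclear copies was added to the mitochondrial genes. The FPKM of a copy was not rescaled to the length of its partner. Gm29216, the copy of mt-Co1, matches only 483 of the 1545 bases of that gene. The complex IV value with copies may therefore be too high. Complex II, which has no mitochondrially encoded subunit, had 4 nuclear genes between 53.5 FPKM (Sdhc) and 257 FPKM (Sdhb), with 4 of 4 below the reference level, where 99.2% of all genes tested lay.

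**Figure D3:**
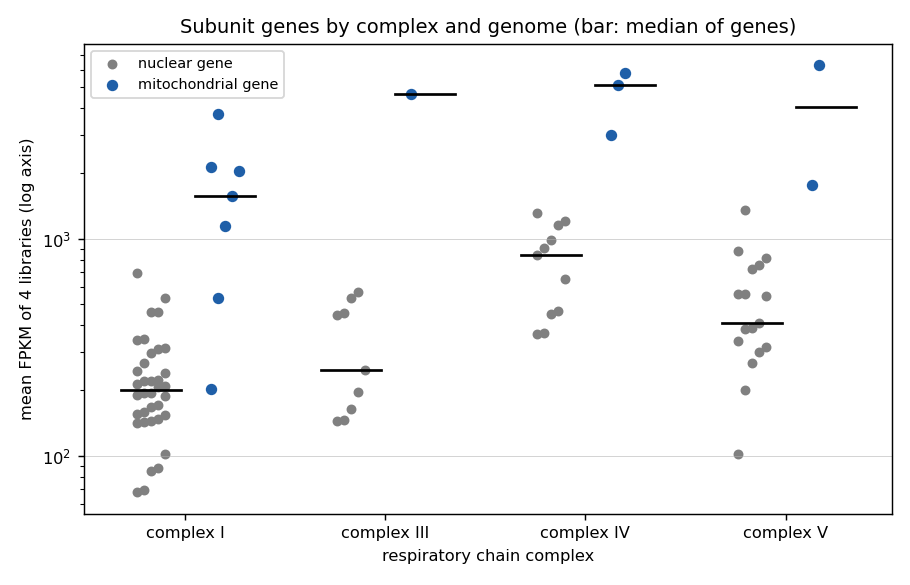
Mean FPKM of 4 libraries, on a log axis, for nuclear and mitochondrial subunit genes of complexes I, III, IV and V, with 1 point per gene and a bar at the median of each set. Mitochondrial genes lay above every nuclear gene of their complex except mt-Nd3 and mt-Nd4l in complex I.

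Genes that make, cut, tail and modify these RNAs are encoded in the nucleus. All 37 genes of 7 lists lay above 1 FPKM (47.7% of all genes tested), and all 37 lay below the nuclear subunit median (99.2% of all genes tested). The 4 transcription genes ranged from the polymerase Polrmt at 4.62 ± 0.967 FPKM to the elongation factor Tefm at 9.65 ± 0.797 FPKM. Of the 4 genes that cut the transcript, the catalytic subunit of mitochondrial RNase P (Prorp, listed as 1110008L16Rik) measured 2.62 ± 1.03 FPKM and the RNase Z gene Elac2 7.32 ± 1.46 FPKM. Hsd17b10, a dehydrogenase that is also an RNase P subunit, was far higher at 50.3 ± 4.90 FPKM. The 8 genes of tailing, stability and decay had a median of 10.04 ± 1.56 FPKM, led by the oligoribonuclease Rexo2 at 75.8 ± 4.40 FPKM and the RNA granule protein Grsf1 at 42.6 ± 4.18 FPKM. The 6 genes of the FASTK family, which act in the maturation of mitochondrial RNAs, ran from Fastkd5 at 1.82 ± 0.199 FPKM to Fastk at 31.9 ± 2.95 FPKM.

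Of the 5 rRNA modification genes, Tfb1m, a methyltransferase of the small subunit rRNA, was lowest at 3.89 ± 0.634 FPKM and Mrm3 (listed as Rnmtl1), a methyltransferase of the large subunit rRNA, highest at 11.2 ± 2.83 FPKM. Among 6 tRNA modification genes, Trnt1, which adds the CCA end, was highest at 31.2 ± 5.97 FPKM and Trit1 lowest at 3.51 ± 0.607 FPKM. The 4 replication genes included the DNA polymerase subunit gene Polg2 at 1.69 ± 0.377 FPKM and the single-strand binding protein gene Ssbp1 at 35.2 ± 1.68 FPKM.

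Nuclear pseudogenes nearly identical to mitochondrial genes carried large values in the same table. A search of annotated transcripts for at least 95% identity over at least 50% of their length found 11, of which 10 averaged 1 FPKM or more. In the nuclear genome, 7 lie side by side on the minus strand of chromosome 1, between positions 24611535 and 24616197 of GRCm38, and 5 of these match with 0 mismatches over their whole length. The other 2 carry 1 substitution each in the matched part. They are named with the mitochondrial base first, the position counted from 1 at the 5′ end of the mitochondrial gene, and the base of the copy last. The substitution is in capitals, A1066T between mt-Co1 and Gm29216 and T3C between mt-Nd3 and Gm28438.
mt-Co1 (chrMT:6390-6414): ggaAttgttttatccaactcatccc
Gm29216 (chr1:24616164-24616188, minus strand): ggaTttgttttatccaactcatccc
mt-Nd3 (chrMT:9459-9482): atTaacctgtacactgttatcttc
Gm28438 (chr1:24613096-24613119, minus strand): atCaacctgtacactgttatcttc

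With so few differing bases, most reads of a gene and its copy cannot be told apart, and the FPKM of both is uncertain. The 7 copies on chromosome 1 held 4.71% ± 0.809 of summed FPKM. Gm10925, the copy of mt-Atp6, measured 6305, 5247, 7377 and 7269 FPKM. Gm28437, the copy of mt-Co3, had a mean of 6000 ± 1219 FPKM, Gm29216 of mt-Co1 4877 ± 1025 FPKM, and Gm28661 of mt-Co2 3182 ± 627 FPKM. Gm28438 of mt-Nd3 (588 ± 138 FPKM) and Gm10222 of mt-Nd4l (209 ± 35.2 FPKM) likewise stood near their partners. In 5 of the 7 the copy exceeded its partner in 4 of 4 libraries, by a log2 difference of 0.04 (Gm10222) to 0.14 (Gm28438). Gm28439 differed, with 581 ± 102 FPKM against 2045 ± 426 FPKM in mt-Nd4, of which it matches the first 876 of 1378 bases. The copies on chromosome 2 have lower identity and lower values: Gm13341 (mt-Co2, 95.9%) measured 13.1 ± 1.42 FPKM, Gm13340 (mt-Co1, 97.6%) 2.24 ± 0.346 FPKM and Gm13339 (mt-Nd2, 96.7%) 1.75 ± 0.503 FPKM.

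Of the 13 protein genes, 7 have a copy on chromosome 1 and 6 do not. Those without are mt-Nd1, mt-Nd2, mt-Atp8, mt-Nd5, mt-Nd6 and mt-Cytb, and their median was 1957 ± 332 FPKM against 2991 ± 590 FPKM in those with a copy. All 6 genes without such a copy lay above the nuclear subunit median. With the copies' FPKM added to their partners, without rescaling for length, the protein share became 12.8%. Such a sum may be too high where a copy matches only part of its partner. This holds for mt-Co1 (483 of 1545 bases) and mt-Nd4 (876 of 1378 bases).

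**Figure D4:**
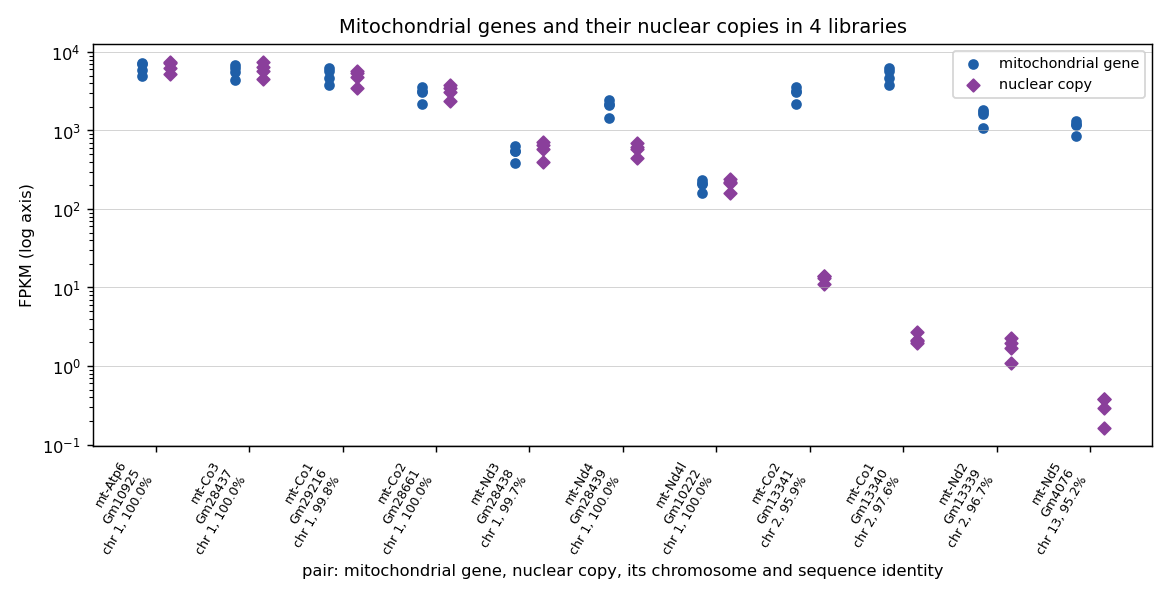
FPKM on a log axis of 11 pairs of a mitochondrial gene (circles) and its nuclear copy (diamonds), with 1 point for each of the 4 libraries, the copy's chromosome and the sequence identity below. The copies on chromosome 1 lay near their partners, apart from Gm28439, while those on chromosomes 2 and 13 lay more than 100-fold below.

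The libraries differed in a common way across the mitochondrial genes. Replicate 2 was the lowest library for 13 of 13 protein genes, 2 of 2 rRNA genes and 19 of 22 tRNA genes. Replicate 3 was the highest for 12 of 13, 2 of 2 and 15 of 22, the protein exception being mt-Atp8, highest in replicate 4. Of 725 other genes averaging 100 FPKM or more, 11.2% were lowest in replicate 2 and 5.79% highest in replicate 3, and of 13607 others with at least 1 FPKM, 27.3% and 24.6%. The median log2 deviation of the protein genes from their own means was 0.05, -0.41, 0.26 and 0.14 in replicates 1 to 4. The 73 nuclear subunit genes did not share this pattern, with -0.13, -0.02, -0.02 and 0.15, and 52 of them were lowest in replicate 1. So were 376 of the 725 other genes averaging 100 FPKM or more, at a median deviation of -0.10, and 3420 of the 13607 with at least 1 FPKM. All 7 copies on chromosome 1 were lowest in replicate 2 and highest in replicate 3.

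Markers of other cell types moved with the same libraries. All 6 choroid plexus markers were lowest in replicate 2, with a median log2 deviation of -0.35 there. Their leading gene Ttr, a thyroid hormone carrier protein, measured 13933, 11398, 15859 and 16782 FPKM. All 6 oligodendrocyte markers and 7 of 8 neuronal markers were highest in replicate 2, at median deviations of 0.20 and 0.12. Many other genes were highest there too: 370 of 725 averaging 100 FPKM or more, whose median deviation was 0.09. Of 13607 others with at least 1 FPKM, 3987 were highest in replicate 2. The 8 endothelial markers showed 0 lowest and 3 highest in replicate 2, and of the 6 astrocyte markers 1 was lowest and 2 were highest there. The part of these cell types in the mitochondrial pattern was not tested.

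**Figure D5:**
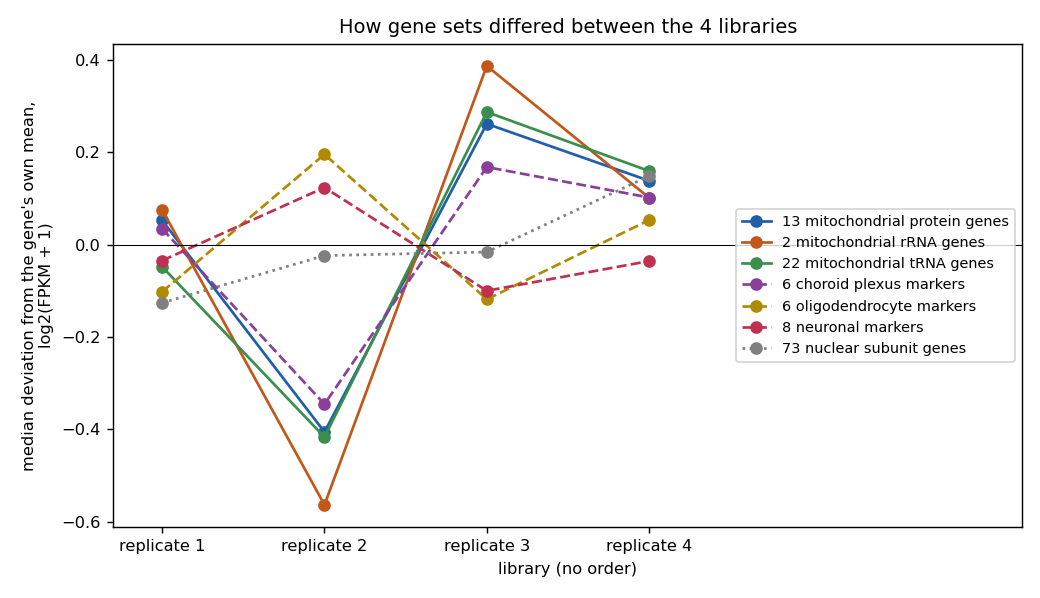
Median log2(FPKM + 1) deviation of each gene set from its genes' own means, in each of the 4 libraries, which have no order and are joined only to help the eye. Mitochondrial protein, rRNA and tRNA genes and choroid plexus markers were lowest in replicate 2, where oligodendrocyte (0.20) and neuronal markers (0.12) were highest. Not drawn are endothelial and astrocyte markers and the other genes averaging 100 FPKM or more. The latter were also highest in replicate 2, at 0.09.

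Relative to each other, the protein genes kept nearly fixed proportions in the 4 libraries. The median CV of their FPKM was 18.8%, against 9.74% in other genes with at least 100 FPKM. As a percentage of the sum of the 13 protein genes in the same library, the median CV was 4.53%, from 1.42% to 9.33%. mt-Co3 was steadiest, with 15.07%, 15.07%, 15.5% and 15.1% of that sum. mt-Atp8 varied most, with 4.35%, 5.21%, 4.30% and 4.89%, and was followed by mt-Nd6, with 6.25%, 5.11%, 5.68% and 5.50%. In replicate 2 mt-Atp8 had its largest share and mt-Nd6 its smallest. The rRNA genes, on the same denominator, had CVs of 9.32% (mt-Rnr2) and 10.9% (mt-Rnr1), and tRNA genes from 3.06% to 38.5%.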

How the data were processed

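Poly(A) RNA-seq was done in 4 libraries of 1 group. The authors deposited FPKM. The submitters' processing notes name build GRCm38 and the tools StringTie 2.2.1, HISAT2 2.2.1, bcl2fastq 2.20 and SAMtools. Not given in the sources used here are the strand setting, the annotation release and how multi-mapping reads were treated. Because FPKM is scaled by length and mapped total, very short genes and a few very high genes can shift values. Low values showed no whole-read steps, so depth is unknown and no counting interval is given.

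Library columns were matched by name, and 0 columns were left out. The members and lists were chosen with earlier results of these data known. Named were all mt- genes, up to 3 highest and 2 lowest genes of each list and every nuclear copy with a mean of at least 1 FPKM. All ratios except mt-Rnr2 to mt-Rnr1 and mt-Nd6 to the heavy-strand median were chosen after their values were seen, as were their alternatives, the strand comparison of tRNA genes and the adding of copies in the limma tests.

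Values were analysed as log2(FPKM + 1), which understates the fold differences of low genes. limma 3.58.1 (R 4.3.3, mean-variance trend, 2-sided, Benjamini-Hochberg, threshold 0.05) tested 25206 genes above 0 in any library against 1 FPKM and against each library's median of 73 nuclear subunits. A form without the trend was run on simulated normal noise, which does not test the trend setting used here. Ratios had exact 2-sided sign-flip tests (16 patterns), and class shares, complexes and copies are descriptions. Copies were sought with BLAST+ 2.17.0 in GENCODE M21 transcripts, and 45223 genes of the table had an entry there. Alternatives covered pseudocount, filters, scaling, length (of the longest annotated transcript of each gene), copies, means for medians and each library left out.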

Additional observations from a re-analysis of the deposited data

Results flagged for a closer look

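mt-Tw, the tryptophan tRNA gene of the heavy-strand transcript, measured 27.5, 28.3, 36.1 and 28.9 FPKM in replicates 1 to 4. Replicate 3, at 36.1 FPKM, lay far from the others: its gap to the next library was 0.842 of the whole range, above Dixon's 95% critical value for 4 samples. It was 1 of 52 values looked at in this way, and chance alone flags about 1 in 20.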

How the results depend on the processing

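Counts of mitochondrial genes above and below 1 FPKM and the nuclear subunit median stayed within 1.5 times under the alternatives run, with 1 exception: with nuclear copies added, mt-Nd4l turned to 0.42 and 0 protein genes lay below that median. Of all genes, 10104 lay below 1 FPKM, 5197 with a filter at 0.1 FPKM and 30135 with every gene of the table tested. The tRNA count above 1 FPKM was 21 to 22 with a library left out, through mt-Tf. With FPKM multiplied by transcript length, the mt-Nd6 minus mt-Nd5 log2 difference turned to -0.91, the strand difference of tRNA medians was 2.35 (3.64 with a pseudocount of 0.01 in place of 1 on that scale, chosen after seeing the data), complex IV and complex V stood at 2.99 and 0.87, and the shares at 3.45%, 0.951% and 0.0315%. With nuclear copies added, without rescaling for length, complex IV and complex V were 3.54 and 3.52 and the protein share 12.8%. Of the 8 ratios, only mt-Nd6 minus mt-Nd5 changed direction with length or copies. With means for medians, mt-Nd6 minus the heavy-strand genes turned to 0.033 and complex I was 2.53. For the means the cause was not tested. At 99% identity over 90% of a transcript 7 copies were left. No paired analysis was possible because the series has 1 group. Shallow depth cannot be told from low level, because the table holds no counts.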
